A study of Mus musculus with 10 samples.

Results

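Prss22, Chrna6, Gdpd3 and Gm7340 are 4 of the 44288 genes found in any of the count tables of a single-cell RNA-seq study of the mouse pituitary. They were chosen by the difference between lactating and virgin females in lactotropes, the pituitary cells that make prolactin, so that difference is given below as a description without a test. The working name of the set tied the genes to lactation. Among the 10 libraries, the lactating libraries differed from the virgin library for each gene, and some 8wk libraries had levels like those in lactation. The virgin library came from a single mouse. The 8wk libraries differed from the virgin and lactating ones in age, and some also in sex, platform or transgene. Whether lactation, age or the single virgin mouse accounted for a level was not tested. Prss22 was at its highest in the virgin library, Chrna6 was at 0 in the virgin library and present in the other 9, Gdpd3 was high in the virgin library and in 8wk male 3, and Gm7340 was high in the virgin library and in 8wk males 2 and 3. The genes are therefore called by their symbols here.

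The pituitaries came from CD1 mice, an outbred stock. A WT 8wk female and a WT 8wk male were each profiled on the 10X Genomics platform (female 1 and male 1), and 8 more libraries were made by Drop-seq, in which cells are captured with barcoded beads in droplets. The Drop-seq libraries held 2 WT 8wk female samples (females 2 and 3) and 2 WT 8wk male samples (males 2 and 3), for which the methods give 2 mice per sample, 1 mt/hGRF transgenic 8wk female library pooled from several mice, 1 virgin 13wk WT female library from a single mouse, and 2 lactating 13wk WT female libraries made from 3 mice. The mt/hGRF transgene drives human growth hormone-releasing hormone from a metallothionein promoter. The physiological condition of the 8wk mice is entered in the labels as not determined, while the study's text calls the WT ones sexually naive and the transgenic ones virgin. Age was 13 weeks in the virgin and lactating libraries and 8 weeks in the rest, so no 13wk male was measured. Female 2 and male 2 share a number in their titles, as do female 3 and male 3, and the labels do not say what it stands for.

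The cell limits of the study left 23432 cells, between 978 and 5256 per library, with a median of 534 to 1246 unique molecular identifiers (UMIs, one per captured transcript) per cell. Lactotropes were picked by 13 markers that include none of the hormone genes and none of the 4 genes. This gate took 2065 cells, between 17 in male 2 and 549 in female 1, and left 13051 cells in no class. A broader assignment by whole profile, added after the data had been seen, placed 7658 cells with the lactotropes, between 43 and 2774 per library. Prolactin mRNA (Prl) in gated lactotropes lay between 149 and 781 UMIs per 10000 and exceeded the level in gated somatotropes, the growth hormone cells, of the same library in each of the 9 libraries whose gate held more than 17 lactotropes. Against cells in no class, Prl in gated lactotropes was lower in the virgin library (758 against 925) and female 2 (559 against 698). It was also lower in lactating libraries 1 and 2 (780 and 781 against 1195 and 1351). Gated lactotropes had the higher level in females 1 and 3, males 1 and 3 and the transgenic library. Gated multi-hormone cells held more Prl in all 9 libraries. Growth hormone mRNA was also found in the gated lactotropes of these libraries. Its level exceeded that of Prl in males 1 and 3 and the transgenic library. Whether the mRNA came from the same cells or from free RNA was not tested. Xist gave 3 to 56 UMIs in the male libraries and 2387 to 27900 in the female ones, as the sex labels require. Drop-seq libraries shared at most 1 cell barcode with each other, and the 10X pair shared 6.

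The 4 genes do unrelated work. Prss22 encodes a secreted serine protease of the tryptase family. Chrna6 encodes the alpha6 subunit of nicotinic acetylcholine receptors, ion channels that open on binding acetylcholine, and alpha6 is known for assembling with beta3, the product of the neighbouring gene Chrnb3. Gdpd3 encodes a glycerophosphodiester phosphodiesterase that acts on lysophospholipids. Gm7340 is annotated as a processed pseudogene, a copy of an mRNA inserted back into the genome. Lactotropes release prolactin for milk production and are held back by dopamine from the hypothalamus, with prolactin acting on its own release through its receptor and Stat5.

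In the GENCODE vM21 annotation of GRCm38, Prss22 lies on the minus strand of chromosome 17 from 23993534 to 23998100, 12967 bases from the related protease gene Prss30. Chrna6 lies on the minus strand of chromosome 8 from 27403212 to 27413944, and Chrnb3 ends 3481 bases away on the plus strand (27368711 to 27399730). Gdpd3 lies on the plus strand of chromosome 7 from 126766334 to 126775649, with Mapk3 514 bases upstream and Ypel3 1305 bases downstream. The antisense transcript Gm9967 runs over 7568 bases of Gdpd3 but shares only 298 exonic bases with it, and it gave 0 to 11 UMIs per library. Gm7340 is a single exon on the plus strand of chromosome X from 111571699 to 111574450 and lies wholly inside an exon of Hdx on the opposite strand, which gave 6 to 43 UMIs per library. Drop-seq reads were counted on the annotated strand only.

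The transcript of Gm7340, 2752 bases long, aligned over 2371 bases to the spliced mRNA of Cwc22, a splicing factor gene on chromosome 2 (77881159 to 77946375, minus strand), with 88.5% identity. It aligned over 2417 bases with 92.0% identity to a second pseudogene, Gm9218, on chromosome X. It also aligned over 2154 bases with 88.0% identity to 7 further genes, Gm13691 and Gm13693 to Gm13698. The longest run of identical bases was 65 for Cwc22 and 121 for Gm9218. The first and the last stretch of 30 ungapped bases of the alignment within the Cwc22 coding sequence are shown as examples, with 4 and 2 differing bases. Sequences were read from the GENCODE transcripts 5′ to 3′, and capitals mark the bases that differ.
Cwc22, first stretch, GRCm38 chr2:77929313-77929342, minus strand: ggaCcCgctgctcaccCgcactGggggagc
Gm7340, first stretch, GRCm38 chrX:111572107-111572136, plus strand: ggaGcTgctgctcaccTgcactAggggagc
Cwc22, last stretch, GRCm38 chr2:77896010-77896039, minus strand: aggagagaaaagtctccaacaaCacaGaaa
Gm7340, last stretch, GRCm38 chrX:111574418-111574447, plus strand: aggagagaaaagtctccaacaaAacaAaaa
Counting from 1 at the 5′ end of each stretch and with the Cwc22 base first, the differences were C4G, C6T, C17T and G23A in the first stretch and C23A and G27A in the last. The last stretch ends with the last base of the Cwc22 coding sequence. The count of Gm7340 is uncertain to the extent that a read can fall where the sequences are identical or nearly so. How many reads did so was not tested.

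Levels below are UMIs of a gene per 10000 UMIs of the same cells, with exact Poisson 95% intervals that cover counting error only. A Drop-seq table lists a gene only where it had a UMI. Prss22 was unlisted in both lactating tables and in that of female 2, Chrna6 was unlisted in the virgin table, and these were read as 0 UMIs. Where a library had 0 UMIs, the level that 3 UMIs would have given is stated as the limit. Gm7340 was not analysed here in the 10X libraries, whose gene list does not hold it.

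Prss22 mRNA was found in the kept cells of 3 of 10 libraries. The transgenic library, female 3 and male 3 held 1, 2 and 3 further UMIs, all in barcodes that were not kept as cells. Among all kept cells the virgin library held 166 UMIs, or 0.601 per 10000 (0.513 to 0.70), while lactating libraries 1 and 2 held 0, with limits of 0.0119 and 0.0060. At 8wk, male 1 held 44 UMIs (0.0866 per 10000) and male 2 held 11 (0.112), whereas male 3, females 1, 2 and 3 and the transgenic females held 0 UMIs. The virgin level was 50.5-fold higher than the limit of lactating library 1, with a lower 95% counting limit of the ratio of 40.6. It was 5.39-fold higher than the level of male 2 (95% counting interval 2.94 to 11). The virgin library stood above every 8wk library for Prss22, and the lactating libraries, like 5 of the 7 8wk libraries, held none. Among gated lactotropes, Prss22 reached 1.28 per 10000 in the virgin library (18 UMIs in 220 cells) and 0.515 in male 1 (11 UMIs in 204 cells), with 0 UMIs in the other 8 libraries. The limit in the 17 gated cells of male 2 was 2.64 per 10000, which is too high to show a level like that of the virgin library.

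Chrna6 showed the opposite arrangement. Its UMIs in all kept cells numbered 0 in the virgin library, with a limit of 0.0109 per 10000, against 85 and 159 in lactating libraries 1 and 2 (0.337 and 0.320 per 10000). In the 8wk Drop-seq libraries the levels were 0.240 in female 2, 0.313 in female 3, 0.132 in male 2, 0.303 in male 3 and 0.0714 in the transgenic females. The 10X libraries gave 0.0332 in female 1 and 0.0335 in male 1. The virgin library was thus the only one of 10 without a Chrna6 UMI, and the lactating levels were close to those of female 3, whose ratio to lactating library 1 was 0.929 (95% counting interval 0.648 to 1.32). Lactating library 1 was 30.9-fold and female 3 was 28.7-fold higher than the limit of the virgin library. The lower 95% counting limits of these ratios were 24.7 and 22.7.

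In gated lactotropes the lactating libraries did not stand above the 8wk Drop-seq ones. Chrna6 measured 0.715 and 0.652 per 10000 in lactating libraries 1 and 2, 1.70 and 1.12 in females 2 and 3, 1.76 and 0.989 in males 2 and 3, and 0.369 in the transgenic females. The 10X libraries lay lower, at 0.118 in female 1 and 0.234 in male 1. The lactating values lay inside the range of the 8wk Drop-seq libraries, whose ends rested on 2 UMIs in male 2 and 4 in the transgenic females. The intervals were wide in the 17 cells of male 2 (0.213 to 6.35) and in the 46 cells of female 2 (0.735 to 3.35, 8 UMIs). That of female 3 (0.703 to 1.70) overlapped those of both lactating libraries. In the broader lactotrope assignment, where more cells were counted, female 3 (1.27 per 10000) was 1.61-fold higher than lactating library 1 (95% counting interval 1.08 to 2.39) and 2.12-fold higher than lactating library 2 (1.47 to 3.02), while the transgenic females (0.278 per 10000) lay below both. The virgin library remained at 0 there, in 1172 cells, with a limit of 0.0469 per 10000.

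Gdpd3 mRNA was found in every library. The levels in all kept cells were 0.659 per 10000 (182 UMIs) in the virgin library and 0.453 (97 UMIs) in male 3, whose ratio was 1.46 (95% counting interval 1.13 to 1.88). The lactating libraries gave 0.0595 and 0.0302 per 10000 with 15 UMIs each. The others were 0.187 in female 2, 0.112 in male 2, 0.0522 in female 3, 0.0546 in the transgenic females, 0.0306 in female 1 and 0.0138 in male 1. The intervals of the virgin library and of male 3 lay above those of the other 8, and lactating library 1 lay within the range of the remaining 8wk Drop-seq libraries while lactating library 2 lay below it. Among gated lactotropes the same pair was high, at 0.855 per 10000 (12 UMIs) in the virgin library and 0.791 (12 UMIs) in male 3, against 0 to 3 UMIs in any other library. The 46 and 17 gated cells of female 2 and male 2 held 0, with limits of 0.639 and 2.64 per 10000, so a level like that of the virgin library was not detectable in male 2. Virgin was 11.1-fold and 21.8-fold higher than lactating libraries 1 and 2 over all kept cells, with 95% counting intervals of 6.54 to 20.2 and 12.9 to 39.8.

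Gm7340 was highest in male 3. In all kept cells it gave 145 UMIs there (0.677 per 10000), 115 in the virgin library (0.417) and 20 in male 2 (0.203). The remaining 5 Drop-seq libraries held 2 to 4 UMIs each, with levels of 0.0208 in female 2, 0.0232 in female 3, 0.0084 in the transgenic females and 0.0079 and 0.0060 in the lactating libraries. The 8 measured libraries fell into 3 high ones and 5 low ones, and the high ones included both 8wk males and the virgin female. Male 3 was 29.2-fold higher than female 3 (95% counting interval 11.1 to 108.0), the library that shares its title number, and the virgin library was 52.7-fold higher than lactating library 1 (14.2 to 439.0). In gated lactotropes Gm7340 measured 1.19 per 10000 in male 3 (18 UMIs) and 0.998 in the virgin library (14 UMIs), and 0 or 1 UMI was seen in each of the other 6.

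**Figure D1:**
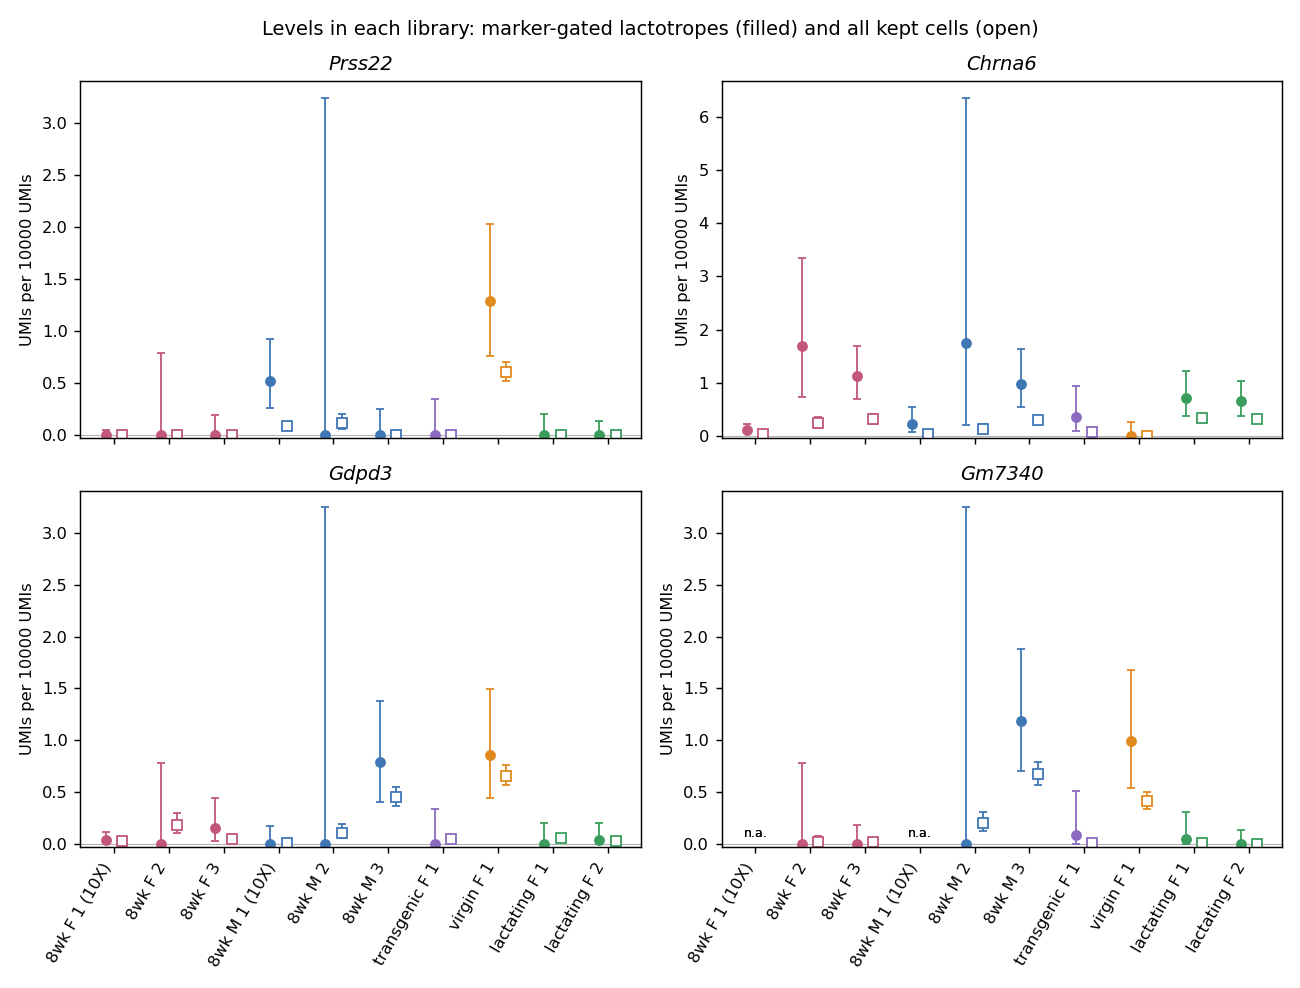
UMIs per 10000 UMIs (y axis, with exact Poisson 95% intervals) for each gene in each of the 10 libraries (x axis), in marker-gated lactotropes (filled circles) and in all kept cells (open squares); n.a. marks the 10X libraries, in which Gm7340 was not analysed. The virgin library is high for Prss22, Gdpd3 and Gm7340 and at 0 for Chrna6, 8wk male 3 is also high for Gdpd3 (0.453 per 10000 over all kept cells, against 0.659 in the virgin library), and 8wk males 3 and 2 are also high for Gm7340 (0.677 and 0.203 against 0.417).

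The same positions were counted over all genes. Over the 15819 genes compared in all kept cells of the Drop-seq libraries, the virgin library lay above all 5 of the 8wk libraries for 9.98% of genes, as it did for Prss22 and Gdpd3, and below all of them for 21.8%, as for Chrna6. Both lactating libraries lay above all 8wk Drop-seq libraries for 2.64% of genes, Chrna6 among them (0.320 and 0.337 against at most 0.313 per 10000), and below them for 24.5%, Gm7340 among them (2 and 3 UMIs, against 2 in the transgenic library). The single-mouse virgin library and the pair of lactating libraries also took part in choosing the genes, so nothing is read from these counts. Within the 4 WT 8wk Drop-seq libraries, which were on neither side of that contrast, the highest level was at least 4 times the lowest for 12.8% of genes. Prss22, Gdpd3 and Gm7340 were among them with ratios of 7.96, 8.67 and 29.2, and Chrna6 was not, with a ratio of 2.38. For the lowest level, a count under 3 UMIs was set to 3. A gene was compared if the 8 Drop-seq libraries together held at least 50 of its UMIs. Prss22 met this only through the virgin library, with 166 of its 177 UMIs, so nothing is read from its ratio.

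The share of cells with a UMI depends on depth per cell, which was greater in the 10X libraries, so its order is not that of the levels across platforms. For Prss22 it was 4.20% of kept cells in the virgin library, 2.43% in male 1 and 1.02% in male 2. For Chrna6 it was 3.03% and 2.74% in the lactating libraries, 2.90% in female 3, 2.48% in male 3 and 0.608% in the transgenic females. For Gdpd3 it was 4.26% in the virgin library and 4.05% in male 3, against 1.43% or less elsewhere. For Gm7340 it was 6.38% in male 3, 3.06% in the virgin library and 2.03% in male 2, against at most 0.270% elsewhere. After each cell had been thinned to 300 UMIs, the shares of Gdpd3 were 2.29% in the virgin library and 1.52% in male 3, those of Prss22 were 1.94% in the virgin library and 0.738% in male 1, and those of Chrna6 were 1.12% in both lactating libraries and 1.15% in female 3. Thinning left out 4 and 5 cells of the 10X libraries and none of the others.

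**Figure D2:**
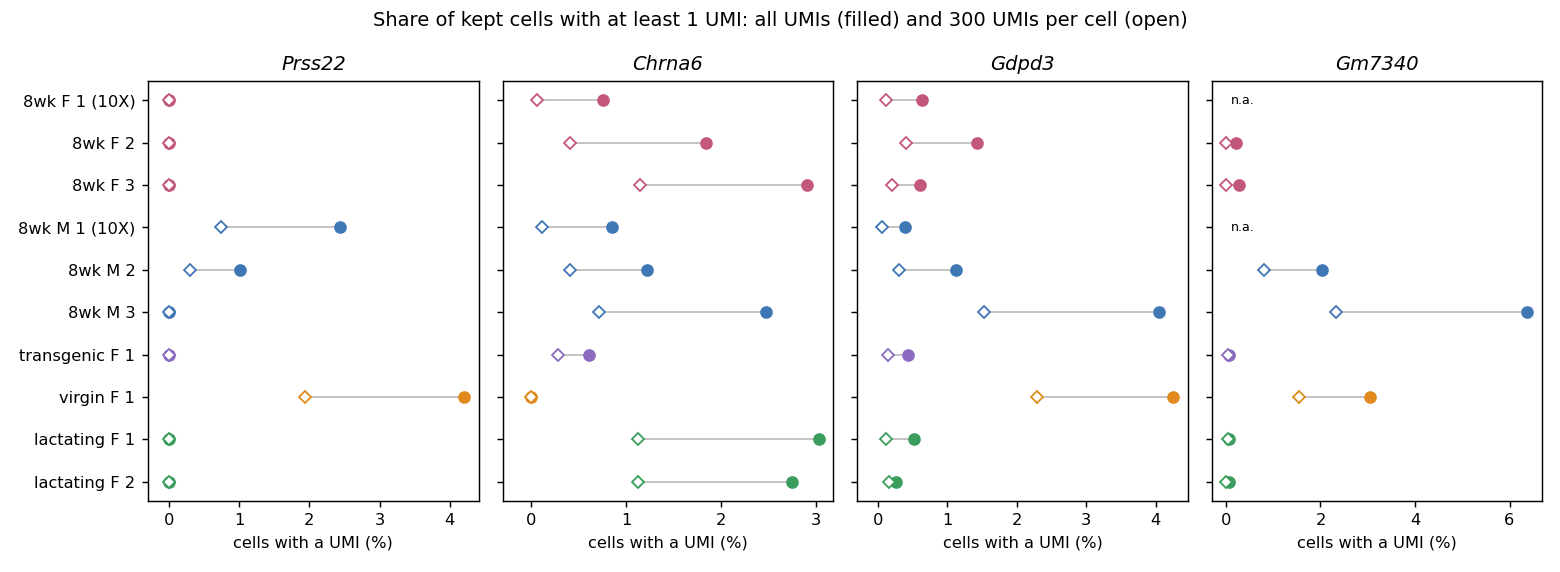
Share of kept cells with at least 1 UMI of each gene (x axis, percent) in each library (y axis), with all UMIs (filled circles) and after thinning every cell to 300 UMIs (open diamonds). The virgin library and 8wk male 3 have the largest shares of Gdpd3 and Gm7340 before and after thinning, and the virgin library has none for Chrna6.

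No gene was carried by a few cells. In the virgin library 154 cells held Prss22, with at most 3 UMIs in a cell, 156 held Gdpd3 with at most 4, and 112 held Gm7340 with at most 2. Cells with Prss22 had a median of 606.5 UMIs against 532 in cells without. Prl measured 488 per 10000 in the virgin cells with Prss22 and 962 in those without, 401 with Gm7340 and 955 without, and 972 with Gdpd3 and 932 without. Of the 3665 virgin cells, 8 held Prss22 and Gdpd3 together, 13 held Prss22 and Gm7340, and 11 held Gdpd3 and Gm7340. Barcodes too small to be kept as cells also held the genes in the virgin library, at 0.843 per 10000 for Prss22, 1.04 for Gdpd3 and 1.17 for Gm7340, and held 0 UMIs of Chrna6. In male 3 such barcodes gave 0.334 per 10000 for Gdpd3 and 0.401 for Gm7340. RNA free in the suspension can give UMIs in cells that do not make a gene, and its part in the levels per class was not tested.

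By cell class, using the broader assignment, Prss22 in the virgin library was at 1.20 per 10000 (0.949 to 1.5) in lactotropes, 0.846 (0.612 to 1.14) in somatotropes and 0.596 (0.317 to 1.02) in melanotropes, the Pomc-rich cells of the intermediate lobe. In macrophages it measured 0.359 (0.155 to 0.707), an interval below that of lactotropes that overlapped those of somatotropes and melanotropes. In the multi-hormone cells it measured 0.123 (0.0561 to 0.233), below the intervals of lactotropes, somatotropes and melanotropes. A Prss22 UMI was seen in 6.06% of virgin lactotropes at a median of 462 UMIs and in 3.36% of virgin macrophages at a median of 743.5 UMIs. UMIs of Prss22 were seen in 12 of the classes of that library, and in the 8wk Drop-seq libraries it gave 1 UMI in lactotropes and 8 in somatotropes.

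Chrna6 had the widest gap between lactotropes and other cells. In the 8wk Drop-seq libraries it measured 0.894 per 10000 in lactotropes (0.733 to 1.08), 0.115 in somatotropes (0.0750 to 0.168) and 0 in 391 macrophages, where the upper 95% limit was 0.0948. In the lactating libraries it measured 0.653 in lactotropes, 0.128 in somatotropes and 0.308 in gonadotropes, where it rested on 6 UMIs. The share of cells with a Chrna6 UMI in the lactating libraries was 4.63% of lactotropes at a median of 646 UMIs and 0.375% of macrophages at a median of 853 UMIs. Marker-gated lactotropes exceeded the other gated cells in 7 of 7 8wk libraries, with means of 0.899 and 0.0534 per 10000 and a mean difference of 0.845 (SD 0.658, n = 7). The two-sided exact sign-flip permutation test gave p = 0.0156, the smallest that 7 libraries allow, and 0.0938 after Benjamini-Hochberg adjustment over the 6 class tests made by marker gate. With 7 libraries and 6 tests, a single gene at the smallest p cannot go below that adjusted value, whatever the size of its difference.

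Gdpd3 UMIs were also counted in macrophages. In the virgin library it measured 1.66 per 10000 in macrophages (1.17 to 2.29, 37 UMIs), 0.906 in lactotropes and 0.885 in somatotropes, and in male 3 it measured 1.76 (9 UMIs), 0.962 and 0.540. The virgin macrophage interval overlapped that of the barcodes too small to be cells, 1.04 per 10000 (0.593 to 1.68), while that of male 3 (0.805 to 3.34) lay above its own, 0.334 per 10000 (0.160 to 0.614). Over the 7 8wk libraries the gated macrophages exceeded the other gated cells in 4 (exact sign-flip permutation test, p = 0.266), and lactotropes did so in 3 (p = 0.797, same test). Gm7340 had overlapping intervals in lactotropes and somatotropes, at 0.998 and 1.01 per 10000 in male 3 and at 0.687 and 0.649 in the virgin library. For Gm7340 lactotropes exceeded the other gated cells in 2 of 5 8wk libraries, a number of libraries too small for this test to reach an adjusted or raw p of 0.05. For Prss22 the kept cells of 5 of the 7 8wk libraries held 0 UMIs, so the test could not have passed and is not used.

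**Figure D3:**
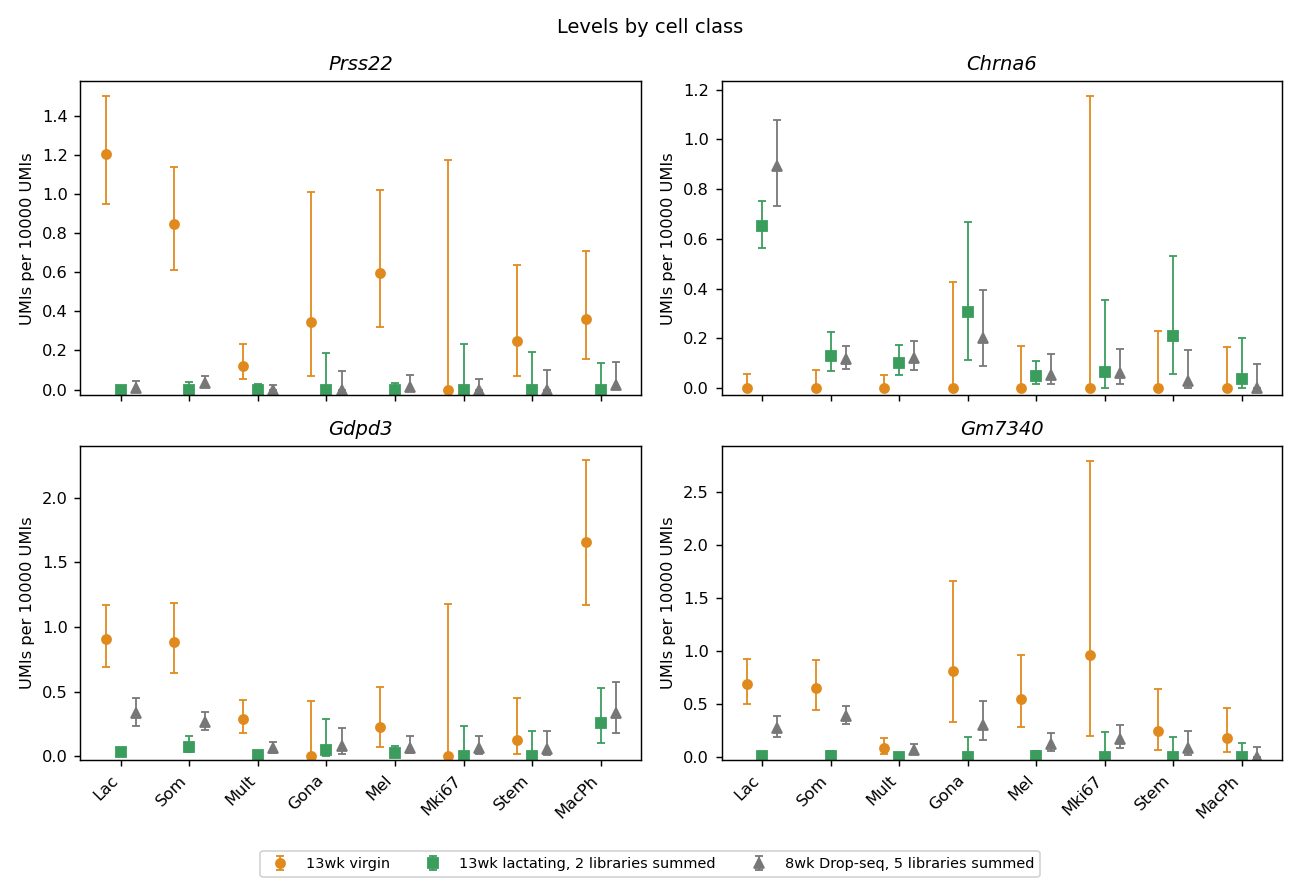
UMIs per 10000 UMIs (y axis, with exact Poisson 95% intervals) in 8 cell classes of the broader assignment (x axis: lactotropes, somatotropes, multi-hormone cells, gonadotropes, melanotropes, proliferating, Sox2-positive stem-like and macrophage classes) for the virgin library, the 2 lactating libraries summed and the 5 8wk Drop-seq libraries summed. Chrna6 is highest in lactotropes at 8wk and in lactation and at 0 in every class shown of the virgin library, and Prss22, Gdpd3 and Gm7340 are spread over several classes.

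The contrast of WT 8wk males with females used neither the virgin nor the lactating libraries. It was fitted with edgeR's quasi-likelihood test on UMIs summed per library, with platform as a covariate and Benjamini-Hochberg adjustment over all genes tested. In gated lactotropes 15 of 4393 genes, or 0.341%, passed an adjusted p of 0.05. Only Chrna6 of the 4 had enough UMIs to be tested, and it did not differ (log2 difference 0.01, males minus females, SE 0.46, adjusted p = 0.999). Prss22 and Gdpd3 did not pass the filter on low counts, and Gm7340 was not analysed in the 10X pair. Without that filter Prss22 had a log2 difference of 6.12 (SE 1.48, edgeR adjusted p = 0.0411), from 11 UMIs in male 1 and 0 in the other 5 libraries, so the fitted size depends on the prior count and nothing is read from this call. In gated somatotropes 12 of 5212 genes passed (0.23%), or 26 with the replicate number as a block, and none of the 4 could be tested.

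In the broader lactotrope assignment 17 of 6631 genes, or 0.256%, were higher in males, and Prss22 was 1 of them (log2 difference 6.46, SE 1.44, edgeR adjusted p = 0.00728). Its UMIs there numbered 15, 1 and 0 in males 1, 2 and 3 and 0 in every female, so the fitted size depends on the prior count and the males overlapped the females at 0. The gene passed the low-count filter only through the males, so nothing is read from this call either. The call was lost without female 1 (edgeR adjusted p = 1.00), the gene no longer passed the filter without male 1 or without male 2, and over all kept cells it was not called (log2 difference 7.35, SE 1.99, edgeR adjusted p = 0.896). It was kept without female 2, female 3 or male 3 (edgeR adjusted p = 0.0022, 0.00176 and 0.00052). The kept cells of male 3, the male library high in Gdpd3 and Gm7340, held no Prss22 UMI. Gdpd3 in the broader assignment had a log2 difference of 1.70 (SE 0.68, edgeR adjusted p = 0.643). Its UMIs there numbered 1, 0 and 27 in males 1, 2 and 3 and 3, 4 and 4 in females 1, 2 and 3. The difference therefore rested on male 3, and nothing is read from it.

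For the transgene, the mt/hGRF library was set against females 2 and 3 within a fit of all 8 Drop-seq libraries. Chrna6, Gdpd3 and Gm7340 were not called in gated lactotropes, among 1 called of 5711 genes (0.0175%), and with 1 library on one side the spread was borrowed from the other groups. Prss22 had 0 UMIs on both sides, so it was not tested. Chrna6 had a log2 difference of -1.55 (transgenic minus WT, SE 0.89, edgeR adjusted p = 0.998), from 0.369 per 10000 against 1.70 and 1.12. Gdpd3 gave -3.61 (SE 3.08) and Gm7340 3.50 (SE 2.5), each resting on at most 3 UMIs in the libraries contrasted. Counts this low could hardly have led to a call. Both genes passed the low-count filter through the virgin library (12 and 14 UMIs) and male 3 (12 and 18 UMIs). Those libraries lie outside this contrast, so nothing is read from the missing calls of Gdpd3 and Gm7340. The value of Gdpd3 became 0 without female 3, the only library of the contrast with a UMI of it. It was -0.065 with a gate of 3 marker UMIs and -0.34 in the broader assignment. DESeq2 called no gene in this comparison, with 52 genes at an unadjusted p under 0.05.

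The lactation contrast is the one that chose the genes. Over all genes edgeR called 3 of 5711 in gated lactotropes (0.0525%) and 16 of 9650 in the broader assignment (0.166%), with 1 virgin library and the spread borrowed from the other groups. These counts include calls among the 4 genes, which this contrast chose, so they are no independent background. The fits of the 4 genes themselves are not used. The other genes of the related pathways gave few calls. Among 15 other nicotinic receptor subunits 1 could be tested in gated lactotropes and 2 in the broader assignment. Among 14 genes of acetylcholine handling, including the esterase gene Ache, 4 could be tested, among 17 tryptase-like proteases and inhibitors 1, among 17 glycerophosphodiesterase and lysophospholipid genes 4, and among 13 genes of prolactin secretion and feedback 9. No gene of these lists was called in gated lactotropes, where the medians of the log2 difference (lactating minus virgin) were 4.19, 0.13, 0.17, -0.51 and 0.19 in that order against 0.05 over all genes tested. Prl itself had a log2 difference of 0.25 (SE 0.79, edgeR adjusted p = 0.999).

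In the sex and transgene comparisons by marker gate the only list gene called was Prl, lower in male than in female somatotropes (log2 difference -1.52, SE 0.35, edgeR adjusted p = 0.0368), and that call was lost in the broader somatotrope assignment (log2 difference -1.49, edgeR adjusted p = 0.372). In gated macrophages, which do not make prolactin, Prl measured 58.9, 90.0 and 2.77 per 10000 in females 1, 2 and 3 and 7.02, 25.9 and 4.06 in males 1, 2 and 3, and its part in the somatotrope difference was not tested.

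The single call among the list genes for lactation was Chrnb3, the neighbour of Chrna6 and its subunit partner. In the broader assignment it was higher in lactating than in virgin lactotropes by a log2 difference of 7.01 (SE 1.58, edgeR adjusted p = 0.00928), from 22 and 48 UMIs in the lactating libraries against 0 in the virgin one, and it was not called in gated lactotropes (log2 difference 4.19, SE 2.60, edgeR adjusted p = 0.999) or over all kept cells (log2 difference 5.56, SE 1.24, edgeR adjusted p = 1.00), where no gene passed and 307 had an unadjusted p under 0.05. The virgin side is 1 library from 1 mouse, with 0 Chrnb3 UMIs in the broader assignment, so the fitted size there depends on the prior count. The same libraries chose the 4 genes, and nothing is read from the call. Chrnb3 in all kept cells gave 1 UMI in the virgin library, 39 and 83 in the lactating libraries, 8, 8 and 82 in females 1, 2 and 3, 1, 13 and 31 in males 1, 2 and 3, and 5 in the transgenic females. As with Chrna6, the virgin library was at the low end among the Drop-seq libraries and the 8wk females and males were spread, with female 3 at 0.476 per 10000 above the lactating libraries at 0.155 and 0.167. Few cells held a UMI of both genes, as each was counted in few cells. Of 5256 cells in lactating library 2, 144 held Chrna6, 77 held Chrnb3 and 5 held both. In the 8wk libraries Chrnb3 in gated lactotropes exceeded the other gated cells in 3 of 7 (exact sign-flip permutation test, p = 0.250), and in the transgenic comparison it had an edgeR adjusted p of 0.0562 in the broader assignment (log2 difference -3.18, SE 0.78).

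Cwc22, chosen after its values were seen because of its likeness in sequence to Gm7340, followed Gm7340 across libraries. In all kept cells Cwc22 measured 12.5 per 10000 in male 3 (2667 UMIs), 10.3 in the virgin library (2848 UMIs) and 4.59 in male 2 (453 UMIs). The other 5 Drop-seq libraries lay between 0.115 and 0.260, and the 10X libraries gave 0.536 in female 1 and 0.431 in male 1. The 3 libraries high in Gm7340 were thus the 3 high in Cwc22. Among cells with a Gm7340 UMI, 119 of 134 also held Cwc22 in male 3, 94 of 112 in the virgin library and 17 of 20 in male 2, where Cwc22 was found in 1167 of 2101, 1606 of 3665 and 203 of 984 cells. Cells with a Gm7340 UMI were also deeper. Their median UMIs were 1053.5 against 695 in cells without in male 3, 592.5 against 532 in the virgin library and 955.5 against 661.5 in male 2. The shares with Cwc22 were not compared at equal depth. Over the 8 Drop-seq libraries the Pearson correlation of log2(UMIs per 10000 + 0.1) between Gm7340 and Cwc22 was 0.982 in all kept cells, the highest of 15815 genes compared, and 0.721 in gated lactotropes, where it ranked 20 of 3734. These are descriptions over libraries that fall into a high and a low set and that share depth and cell mix. Gm9218, the nearest relative in sequence, gave 14 UMIs in male 3, 4 in male 2 and 1 in the virgin library. Whether reads of one locus were counted at another was not tested.

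**Figure D4:**
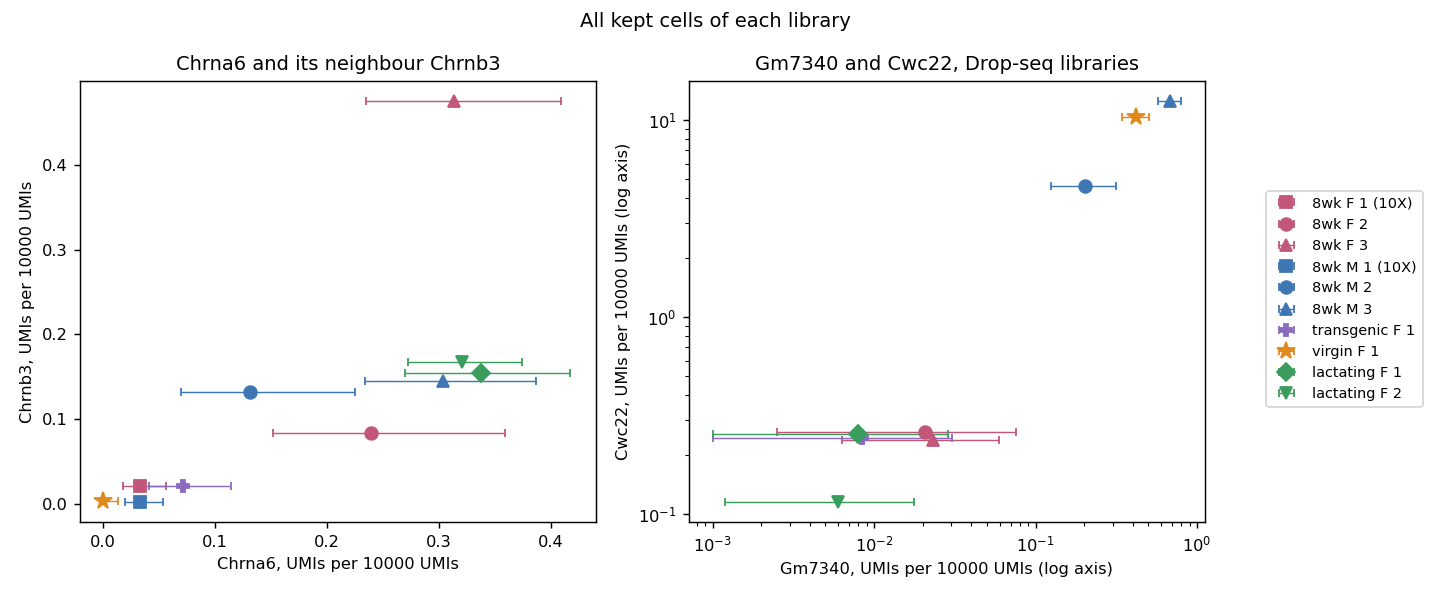
Levels in all kept cells of each library, as UMIs per 10000 UMIs, with horizontal bars for the exact Poisson 95% intervals of the x axis gene. Left, Chrna6 (x) and Chrnb3 (y) in all 10 libraries, with the virgin library at the origin end, the lactating libraries highest for Chrna6 just beyond 8wk female 3 and male 3, and 8wk female 3 highest for Chrnb3; right, Gm7340 (x) and Cwc22 (y) on log axes in the 8 Drop-seq libraries, with 8wk males 2 and 3 and the virgin library apart from the other 5.

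The neighbours of Gdpd3 and Prss22 had other levels. Ypel3, which follows Gdpd3, measured 4.06 per 10000 in the virgin library, 4.01 and 3.92 in the lactating ones and 3.16 in male 3, and Mapk3, which precedes it, stayed between 0.158 and 0.302 in all 10 libraries. Prss30, next to Prss22, had 0 or 1 UMI in every library. By likeness of the level over the 8 Drop-seq libraries in gated lactotropes, the genes nearest to Prss22 were Grina (Pearson correlation 0.856), Cd63 (0.811) and Pced1a (0.806). Those nearest to Chrna6 were Sec22b (0.957), Casd1 (0.94) and Gripap1 (0.939), those nearest to Gdpd3 were Prrt1 (0.917), Ndst3 (0.898) and Bsg (0.885), and those nearest to Gm7340 were Cdc40 (0.873), Ppp4r3b (0.838) and Tmem191c (0.838). With 8 libraries and 3734 genes compared, these values are descriptions only. Of these libraries only the virgin one held Prss22 UMIs in gated lactotropes. The genes listed for Prss22 are therefore those that stood out in that library, which took part in choosing Prss22. None of the genes listed for a member was among its 3 nearest over all kept cells.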

How the data were processed

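The deposited tables hold raw counts of UMIs per gene and cell barcode. Per the labels and the study's methods, the authors mapped Drop-seq reads to mm10 with STAR (version 2.5.2a in the submitters' processing notes), kept uniquely mapped exonic reads on the annotated strand and merged UMIs within an edit distance of 1. The 10X tables came from Cell Ranger, with the version and annotation not given in the sources used here. The 4 genes, the gene lists and the markers were chosen with earlier results of these data known. The genes to be named were the 4 members, list genes that passed a test, annotated neighbours and the 3 genes most alike each member over the Drop-seq libraries.

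Cells were kept at 300 or more UMIs and 100 to 4000 genes (Drop-seq) or over 200 and under 3000 genes (10X), with a mitochondrial share under 0.1. Doublets were not removed. A cell joined 1 of 14 classes with at least 2 marker UMIs and a Poisson tail p below 0.05. Col1a2 was dropped from the stromal markers, and the profile assignment added, after the data were seen. The totals of kept UMIs ran from 960289 to 5080590 per library, so low-count genes carry wide intervals. Sums of UMIs per library and class went into the quasi-likelihood fit of edgeR 4.0.16 after TMM scaling and its low-count filter (R 4.3.3), with DESeq2 1.42.0 as an alternative. Tests on single genes were exact permutation tests in scipy 1.17.1, and alignments used blastn 2.17.0. On simulated data with 200 genes changed 4-fold, the sex fit recovered 82.3% of the changed genes tested in gated lactotropes and 88.3% in gated somatotropes, the transgene fit 27.2% and the lactation fit 18.8%. The simulated counts had the same spread for every gene and no platform or replicate differences, so these rates need not hold for the real data. In gated somatotropes, the deviations of male and female libraries with the same replicate number had correlations of 0.762, 0.28 and 0.529. Replicate 1 was the 10X library of each sex and the deviations were not adjusted for platform. The check therefore cannot show that replicate numbers pair the libraries. Replicates were separate libraries, and pooled mice inside a library cannot be told apart.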

Additional observations from a re-analysis of the deposited data

How the results depend on the processing

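Among recomputed counts of called genes and levels and shares of the 4 genes, 112 stayed within their limits and 33 moved. Among recomputed log2 differences of single genes among the 4 by sex or transgene, 9 reversed and 56 did not. The transgene value of Gdpd3 nevertheless went to 0 without female 3. The count of genes that differed by sex in gated lactotropes (15) was 8 with DESeq2, 35 with the broader assignment, 6 with Drop-seq libraries only and 6 to 27 with a library left out (6 without female 1, male 1 or male 3, and 27 without male 2). In somatotropes (12) it was 21 without a count filter, 5 with Drop-seq libraries only and 7 to 17 with a library left out (7 without male 1). The transgene count (1) was 0 with DESeq2, 7 with the broader assignment, 0 over all kept cells (1933 genes at an unadjusted p under 0.05) and 0 to 3 with a library left out. The lactation count (3) was 1 with DESeq2, 1 for cells of 500 or more UMIs, 16 with the broader assignment, 0 over all kept cells (307 genes at an unadjusted p under 0.05) and 1 to 4 with a library left out (1 without lactating library 1 or 2). The cause was not tested.

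The sex difference of Chrna6 changed sign, always far from the threshold, to -0.04 without a count filter, -0.0029 with a gate of 1 marker UMI, -0.15 over all kept cells, -0.32 with Drop-seq libraries only, and -0.42 to 0.49 with a library left out (-0.39, -0.42, -0.0039 and -0.067 without female 1, male 1, male 2 and female 3). That of Gm7340 for the transgene was -1.13 over all kept cells. Over all kept cells the virgin levels fell to 0.601 for Prss22 and 0.417 for Gm7340, and the lactating means moved to 0.329 for Chrna6 and 0.0449 for Gdpd3; a gate on hormones gave 0.581 for Chrna6. Thinned to 300 UMIs, the shares in gated lactotropes were 1.79% for Chrna6 in lactation and 2.73% and 2.27% for Gdpd3 and Gm7340 in the virgin library. With the replicate block, the sex fit called 18 genes in gated lactotropes and 26 in gated somatotropes. Replicate numbers were not shown to pair the libraries in either class (correlations of deviations in lactotropes 0.589, 0.089 and 0.355). Depth limits all 4 genes, with at most 22 UMIs of any in the gated lactotropes of a library, and the virgin values rest on 1 mouse.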
